A study of Mus musculus with 2 samples.

Results

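In all, 10 genes that encode proteins of the muscle Z-disc and of the filaments attached to it (Des, Flnc, Xirp1, Xirp2, Myot, Ldb3, Tcap, Myoz1, Myoz2 and Csrp3) were compared between hindlimb muscle of mice in which the gene of the splicing factor Srsf2 was targeted with MyoD-Cre and hindlimb muscle of floxed controls. They were taken by exact gene symbol from the 44787 genes with values, and all 10 were found once. The knockout library was made from mice labelled SRSF2 flox/flox MyoD-Cre and the control library from mice labelled SRSF2 flox/flox, so that both carried the floxed alleles and only the knockout carried MyoD-Cre, which expresses Cre recombinase in cells of the muscle lineage. By this design cells of other lineages in the limb would keep Srsf2, but Srsf2 was not measured by cell type. Loss of Srsf2 and an effect of the Cre allele itself cannot be told apart. The labels say that hindlimbs were collected and call the tissue hindlimb muscle. The age of the mice and the number of animals behind each library are not given in the labels. Each genotype had 1 library, so no difference has a replicate check and no p-value is given. "Higher" and "lower" describe these 2 libraries.

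The Z-disc borders each sarcomere and anchors the actin filaments of its neighbours through alpha-actinin. A set of adaptor proteins binds alpha-actinin, actin, titin and each other there, and several of them also bind signalling enzymes such as calcineurin or sense stretch. Desmin filaments run around the Z-discs and tie neighbouring myofibrils to each other, to the cell membrane and to the nuclei. Mutations in human genes of this group, among them DES, FLNC, MYOT and LDB3, cause myofibrillar myopathies.

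Values are FPKM, a read count per gene normalised to gene length and library size, so levels can be compared between genes. The knockout library held 76702198 reads and the control library 69422626, of which 80.0% and 81.4% were mapped. Srsf2 itself was at 19.4 FPKM in the knockout library against 31.1 FPKM in the control library, a ratio of 0.624 with a 95% counting interval of 0.583 to 0.666. The labels do not say which part of Srsf2 is floxed, and the value covers the whole gene. The 18 pan-fibre muscle genes listed as a check of the tissue were all above 1 FPKM in both libraries, with a summed level of 6396 FPKM in the knockout library and 10677 FPKM in the control library. Counting intervals were computed from whole reads recovered from the FPKM values and cover counting error only.

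Of the 10 genes, 9 had a lower FPKM in the knockout library and 1, Tcap, had a higher one. The lower values ranged from those of Xirp2 and Myot, at little over 0.5 of the control level, to that of Csrp3, 7.86% lower. None passed a 2-fold rule of size (1 or more in size on the log2(FPKM + 1) scale), which was passed in the lower direction by 0.744% of the 13175 measured genes, those that reached 1 FPKM in either library, and 2.68% in the higher direction. At a 1.5-fold rule, 3 of the 10 (Xirp2, Myot and Xirp1) were lower, beside 2.91% of measured genes, and 0 were higher, beside 9.15%. The median difference of the 10 genes was -0.43 on the log2 scale and that of all measured genes was 0.18. Among all measured genes 27.0% had a difference below 0. A difference of -0.43 or less was found in 5.28% of measured genes. The counting interval of the knockout to control ratio lay below 1 for 9 of the 10 genes, against 12.1% of the 11722 measured genes with an interval, and above 1 for 1 gene, against 49.2%. Genes with more reads have narrower intervals, so these shares compare unlike depths. The median level of the 10 genes was 136 FPKM in the knockout library and 147 FPKM in the control library. That of all measured genes was 5.79 FPKM and 4.95 FPKM. The 10 genes together made up 0.580% of all FPKM in the knockout library, against 0.690% in the control library. In bulk muscle, fewer muscle cells, less RNA per muscle cell and more RNA from other cells in the library cannot be told apart.

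**Figure D1:**
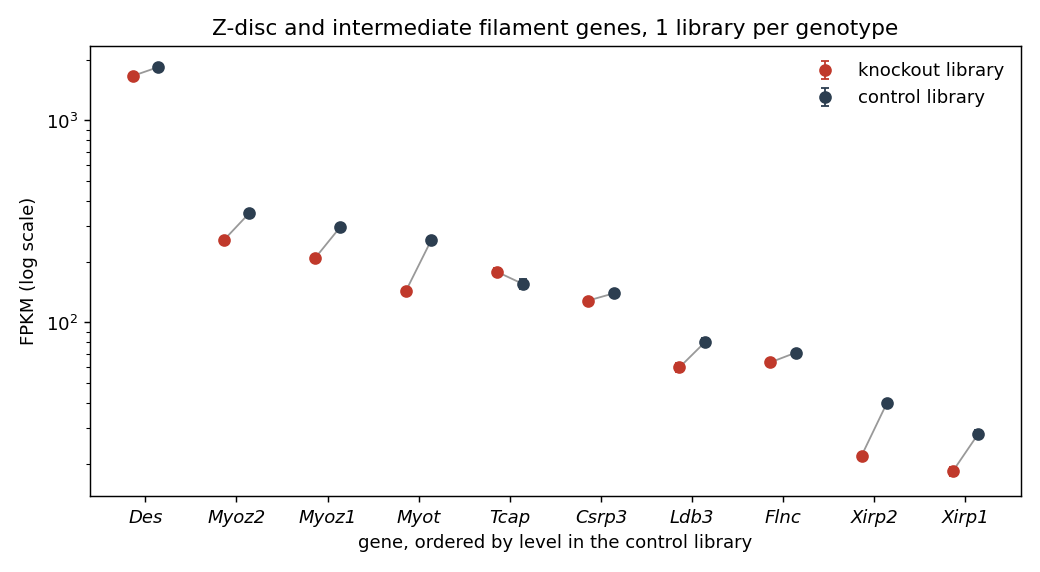
FPKM (vertical log axis) of the 10 genes in the knockout library (red, left of each pair) and the control library (dark, right of each pair), ordered by control level, with 95% counting intervals where these are wider than the symbols. Des stands about a decade above most others at 1661 FPKM in the knockout library and 1837 FPKM in the control library, and Tcap is the 1 gene whose knockout value is the higher one.

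The DNA around 3 start sites is shown because these genes stand at different points of that range: Xirp2 had the lowest ratio, Myoz2 an intermediate one and Des one close to 1. RefSeq promoter windows on GRCm38.p6, from 250 bases before to 50 bases after a start site, were found for 6 of the 10 genes. Capitals mark matches on either strand to a muscle E-box (CAGCTG, or else CACCTG, or else CAGGTG), the MEF2 site, the CArG box, MCAT (CATTCC) or TATAAA, and all are printed 5′ to 3′ on the strand of the gene.
Xirp2, chr2:67445752-67446051, plus strand: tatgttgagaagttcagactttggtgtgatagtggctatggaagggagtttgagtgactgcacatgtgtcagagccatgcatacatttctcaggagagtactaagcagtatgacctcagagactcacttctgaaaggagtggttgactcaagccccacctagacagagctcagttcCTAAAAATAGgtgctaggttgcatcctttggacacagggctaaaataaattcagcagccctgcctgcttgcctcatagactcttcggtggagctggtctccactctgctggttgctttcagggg
Myoz2, chr3:123034938-123035237, minus strand: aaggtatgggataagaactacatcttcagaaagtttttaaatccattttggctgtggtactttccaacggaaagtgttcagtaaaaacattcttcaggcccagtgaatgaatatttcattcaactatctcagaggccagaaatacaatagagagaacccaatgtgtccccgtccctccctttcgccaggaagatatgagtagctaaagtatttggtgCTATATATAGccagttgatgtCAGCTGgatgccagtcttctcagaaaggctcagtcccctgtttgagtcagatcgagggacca
Des, chr1:75360042-75360341, plus strand: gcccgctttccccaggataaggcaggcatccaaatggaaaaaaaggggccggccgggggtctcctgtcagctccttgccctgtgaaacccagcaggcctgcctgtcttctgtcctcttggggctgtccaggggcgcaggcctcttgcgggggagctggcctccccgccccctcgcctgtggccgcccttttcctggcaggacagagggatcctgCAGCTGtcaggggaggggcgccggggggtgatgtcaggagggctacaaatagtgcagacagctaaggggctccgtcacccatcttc

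A MEF2 site was found in the windows of Xirp2, 74 bases before the start, and Myoz2, 33 bases before it, and in 3.19% of all 32851 promoter windows of the table. A muscle E-box was found in the windows of Des and Myoz2, 36 and 12 bases before the start, in 1 of the 2 windows of Csrp3, and in 32.9% of all windows. Every muscle E-box is also counted among the general E-boxes (CANNTG), which 72.3% of all windows hold. A CArG box was found in the windows of Ldb3, 35 bases before the first of its start sites, against 1.63% of all windows, and MCAT in those of Flnc, against 14.7%. TATAAA was found in none of these windows and in 13.6% of all. These matches describe letters in the window, and binding was not measured.

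Among the filament and cross-linker genes, differences were small. Des encodes desmin, the intermediate filament protein of muscle (chromosome 1, 75360344 to 75367716, plus strand, as deposited on GRCm38). It was at 1661 FPKM in the knockout library and 1837 FPKM in the control library, rank 32 of all genes in both. The ratio was 0.904 (0.893 to 0.915), from 50107 and 52644 recovered reads. The exons of Des share 220 bases with Gm15179 on the opposite strand, whose level was 0.422 FPKM in the knockout library and 1.39 FPKM in the control library. No source used here says whether reads were counted by strand. Desmin made up 60.7% of the summed FPKM of the 10 genes in the knockout library, against 56.5% in the control library.

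Flnc encodes filamin C, the muscle form of an actin cross-linker that sits at the Z-disc and the cell membrane (chromosome 6, 29433153 to 29461888, plus strand). It was at 63.5 FPKM in the knockout library and 71.0 FPKM in the control library, a ratio of 0.895 (0.868 to 0.922). Flnc and Des stood in nearly the same proportion in both libraries: 0.0382 FPKM of Flnc per FPKM of Des in the knockout library, against 0.0386 in the control library, a ratio of ratios of 0.990 (0.958 to 1.02). Such a ratio of ratios does not depend on how the libraries are scaled. The gene pairs here and below were picked with their values known, so a ratio of ratios near 1 partly reflects that choice.

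Filamin C and desmin were also each set beside a relative, chosen with its values known. Flna, the filamin of most cell types, was at 31.5 FPKM in the knockout library against 25.2 FPKM in the control library, 25.0% higher, with an interval of the ratio of 1.21 to 1.29. Flnc was at 2.02 times the level of Flna in the knockout library, against 2.82 times in the control library, a ratio of ratios of 0.716 (0.684 to 0.750). Vim, vimentin, the intermediate filament protein of mesenchymal cells and immature muscle, reached 839 FPKM in the knockout library and 691 FPKM in the control library (ratio 1.21, 1.19 to 1.24). Desmin was thus at 1.98 times the level of vimentin in the knockout library, against 2.66 times in the control library.

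The Xin proteins bind actin and filamin C and are known from myotendinous junctions and from sites of myofibril damage and repair. Xirp2 (chromosome 2, 67446002 to 67526604, plus strand) was at 21.9 FPKM in the knockout library and 40.1 FPKM in the control library. The ratio was 0.546 (0.531 to 0.562), from 7356 and 12796 recovered reads, the lowest of the 10 genes, and 1.28% of measured genes had a lower difference. Its exons share 168 bases with Gm13601 on the opposite strand. Xirp1 (chromosome 9, 120013755 to 120023595, minus strand) was at 18.3 FPKM in the knockout library and 28.1 FPKM in the control library, a ratio of 0.652 (0.612 to 0.695). Xirp2 was thus lower than Xirp1 in relative terms, with a ratio of ratios of 0.837 (0.781 to 0.899), and its share of the summed Xin FPKM was 54.5% in the knockout library, against 58.8% in the control library. Xirp1 stood at 0.288 FPKM per FPKM of its binding partner Flnc in the knockout library, against 0.396 in the control library.

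Among the alpha-actinin-binding adaptors, Myot had the largest difference. Myot encodes myotilin, an immunoglobulin-domain protein that binds alpha-actinin and filamin C and bundles actin (chromosome 18, 44334053 to 44355741, plus strand). It was at 143 FPKM in the knockout library and 257 FPKM in the control library, a ratio of 0.558 (0.538 to 0.579), and its rank among all genes by level was 321 in the knockout library, against 157 in the control library. Its ratio and that of Xirp2 differed by less than counting error, with a ratio of ratios of 0.979 (0.934 to 1.03) for Xirp2 over Myot. Ldb3 encodes ZASP, also called Cypher, a PDZ and LIM domain protein that holds alpha-actinin at the Z-disc (chromosome 14, 34526699 to 34588681, minus strand). It was at 59.9 FPKM in the knockout library and 79.8 FPKM in the control library, a ratio of 0.750 (0.699 to 0.805). Myot was at 2.40 times the level of Ldb3 in the knockout library, against 3.22 times in the control library. GENCODE M21 lists 7 protein-coding transcripts of Ldb3, the most of the 10 genes, and the per-gene values do not show which of them were used.

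The myozenins, or calsarcins, tie calcineurin to alpha-actinin at the Z-disc. Myoz1, the form of fast fibres (chromosome 14, 20649102 to 20656540, minus strand), was at 208 FPKM in the knockout library and 297 FPKM in the control library, a ratio of 0.698 (0.678 to 0.719). Myoz2, the form of slow fibres and heart (chromosome 3, 123006206 to 123035002, minus strand), was at 255 FPKM in the knockout library and 347 FPKM in the control library, a ratio of 0.735 (0.715 to 0.755). The fast and the slow form thus kept nearly the same proportion, 0.813 FPKM of Myoz1 per FPKM of Myoz2 in the knockout library, against 0.856 in the control library, with a ratio of ratios of 0.950 (0.913 to 0.989). Myoz3, a further fast-fibre myozenin that is not among the 10 genes, had 1.81 FPKM in the knockout library and 4.49 FPKM in the control library (ratio 0.404, 0.337 to 0.484). It made up 0.391% of the summed myozenin FPKM in the knockout library, against 0.691% in the control library. Ldb3 and Myoz2 had ratios that differed by less than counting error (ratio of ratios 1.02, 0.947 to 1.10).

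Of the genes of the stretch-sensing complex at the titin end of the Z-disc, Tcap had the highest ratio of the 10 genes. The ratio of Csrp3 was close to that of Des. Tcap encodes telethonin, which caps the Z-disc end of titin (chromosome 11, 98383811 to 98384953, plus strand). It was at 178 FPKM in the knockout library and 155 FPKM in the control library, a ratio of 1.15 (1.06 to 1.23), close to the median gene, and 52.2% of measured genes had a lower difference. Csrp3 encodes muscle LIM protein, a partner of telethonin (chromosome 7, 48830400 to 48845220, minus strand). It was at 128 FPKM in the knockout library and 139 FPKM in the control library, a ratio of 0.921 (0.879 to 0.965). The ratio of ratios of Csrp3 over Des was 1.02 (0.971 to 1.07), within counting error of 1. Tcap was at 1.39 times the level of Csrp3 in the knockout library, against 1.11 times in the control library. The relatives of Csrp3 in other cell types were higher in the knockout library: Csrp2 was at 61.3 FPKM against 42.0 FPKM and Csrp1 at 37.8 FPKM against 25.7 FPKM.

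**Figure D2:**
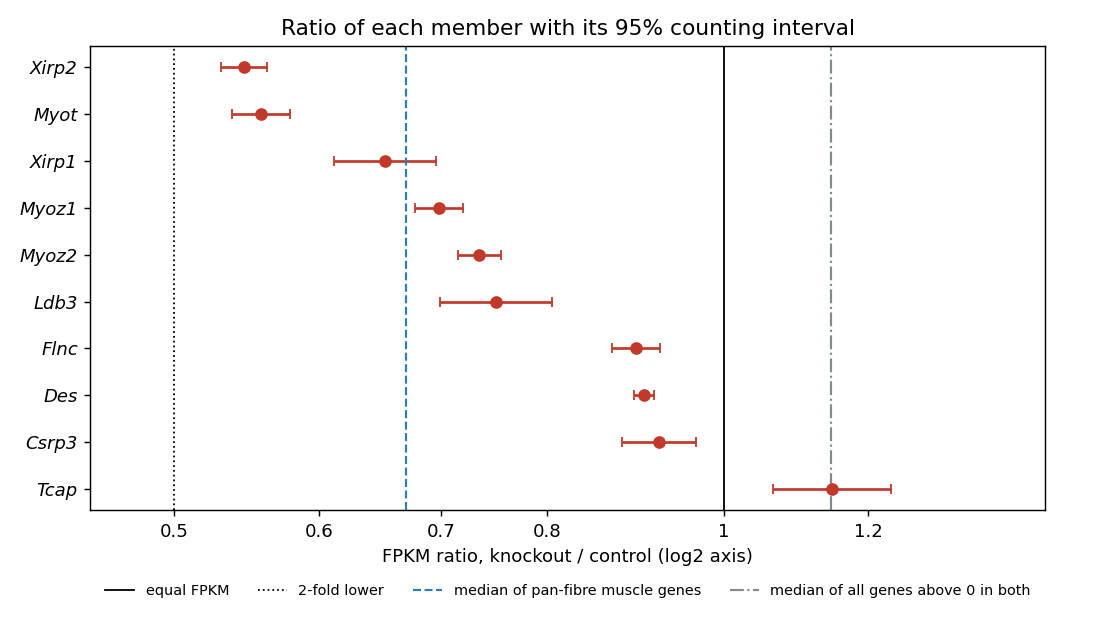
FPKM ratio of knockout to control (horizontal log2 axis) for each of the 10 genes, lowest at the top, with 95% counting intervals as bars; the lines mark equal FPKM, a 2-fold lower value, the median ratio of 18 pan-fibre muscle genes (0.670) and the median ratio of all genes above 0 in both libraries (1.14). Xirp2 and Myot lie left of the pan-fibre line with their whole intervals and Xirp1 (0.652) lies left of it with an interval that crosses it, while Flnc, Des and Csrp3 lie close together at 0.895 to 0.921, and Tcap lies right of 1.

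The order of the genes by level was nearly the same in both libraries. Des, Myoz2 and Myoz1 came first and Xirp2 and Xirp1 last in each. Myot and Tcap changed places: Tcap was at 1.24 times the level of Myot in the knockout library, against 0.605 times in the control library, a ratio of ratios of 2.05 (1.89 to 2.23). Flnc and Ldb3 also changed places. In the knockout library they were at 63.5 FPKM (62.1 to 64.9) and 59.9 FPKM (56.8 to 63.1), where the computed intervals overlap. In the control library they were at 71.0 FPKM (69.5 to 72.5) and 79.8 FPKM (76.1 to 83.6), where they do not. These intervals rest on the smallest reads that fit and can be too wide, so the overlap is not settled. The range from the highest to the lowest of the 10 genes was 90.7-fold in the knockout library, against 65.4-fold in the control library.

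The differences have to be read beside the rest of the muscle transcriptome, since muscle genes as a group were lower in the knockout library. Each of the 18 pan-fibre muscle genes was lower there (median -0.57), from Asb2, a ubiquitin ligase subunit of muscle, at 7.92 FPKM against 18.4 FPKM, to Klhl41 at 220.0 FPKM against 224.8 FPKM. Of them 1 was lower by the 2-fold rule and 8 by the 1.5-fold rule. Set against the median ratio of these genes, 0.670, the counting interval of 7 of the 10 genes lay above it, led by Tcap (1.71 times that ratio), Csrp3 (1.38), Des (1.35) and Flnc (1.34). Ldb3, Myoz2 and Myoz1 were at 1.12, 1.10 and 1.04 times that ratio. The interval of Xirp1 held it, and those of Myot (0.833) and Xirp2 (0.815) lay below it. The spread of the 18 genes themselves is not part of these intervals. Lying above this ratio was usual among measured genes. Scaled to it, the median measured gene was at 0.64 on the log2 scale and the median of the 10 genes at 0.15.

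The fast fibre list had a median of -0.93 with 5 of 12 genes lower by the 2-fold rule, from Pvalb, a calcium buffer of fast fibres, at 8.02 FPKM against 56.7 FPKM, to Myh2, the type IIa myosin heavy chain, with 30.4 FPKM in the knockout library and 41.6 FPKM in the control library. For the slow fibre genes the median was -0.15, with 6 of 10 genes below 0 and 1, Myl3, lower by the 2-fold rule, with 30.4 FPKM in the knockout library and 63.1 FPKM in the control library. The highest was Tnni1, the slow form of troponin I, with 158 FPKM in the knockout library and 119 FPKM in the control library. Differences ranged from -2.68 to -0.44 in the fast list and from -1.03 to 0.40 in the slow list. Myoz1 (-0.52) lay within each of these ranges. Myoz2 (-0.443) lay within the slow range and at the upper end of the fast range, next to Myh2 (-0.441). With a pseudocount of 0.1 FPKM, Myoz2 (-0.445) lay just above Myh2 (-0.452) and so outside the fast range.

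Of 25 other Z-disc genes, 24 were measured, and 18 of these were below 0 and 6 above it, with a median of -0.32. None passed the 2-fold rule on the log2(FPKM + 1) scale and 4 were lower by the 1.5-fold rule. On that scale the lowest was Actn3 (-0.964), the alpha-actinin of fast fibres. It had 126 FPKM in the knockout library and 247 FPKM in the control library (ratio 0.511, 0.499 to 0.523). Myoz3, also in this list, was next to it at -0.963, and its plain FPKM ratio was lower, at 0.404 (0.337 to 0.484), which is more than 2-fold. The highest was Dnajb6, a chaperone at the Z-disc, at 30.2 FPKM against 22.6 FPKM. Of 10 other intermediate filament genes, 9 were measured, with 5 below 0, 4 above it and a median of -0.14. Sync, syncoilin, a filament protein of muscle that binds the dystrophin-associated complex through dystrobrevin, was the lowest with 7.22 FPKM in the knockout library and 14.8 FPKM in the control library (ratio 0.489, 0.434 to 0.549), and Vim was the highest. Of 3 simple epithelial keratins, 2 were measured and close to the minimum of 1 FPKM, with Krt8 at 1.70 FPKM against 1.65 FPKM and Krt18 at 2.11 FPKM against 1.75 FPKM. Krt19 was below that minimum, at 0.285 FPKM against 0.164 FPKM.

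Filamins and actin linkers other than Flnc spread from -0.69 to 0.54 around a median of 0.22, with 4 of 13 below 0 and 9 above it. Vcl, vinculin of costameres and focal adhesions, was the lowest with 24.7 FPKM in the knockout library and 40.3 FPKM in the control library (ratio 0.612, 0.587 to 0.637), and Csrp1 was the highest. Calcineurin subunits and regulators, NFAT factors and ankyrin repeat proteins had a median of 0.09, with 3 of 11 below 0, a share close to the 27.0% of all measured genes. None was lower by the 1.5-fold rule and 1 was higher, Ankrd1, a stretch-responsive partner of titin, with 37.7 FPKM in the knockout library and 21.9 FPKM in the control library (ratio 1.72, 1.59 to 1.86). Ankrd23, another ankyrin repeat protein of this family, was the lowest at 6.79 FPKM against 8.30 FPKM.

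**Figure D3:**
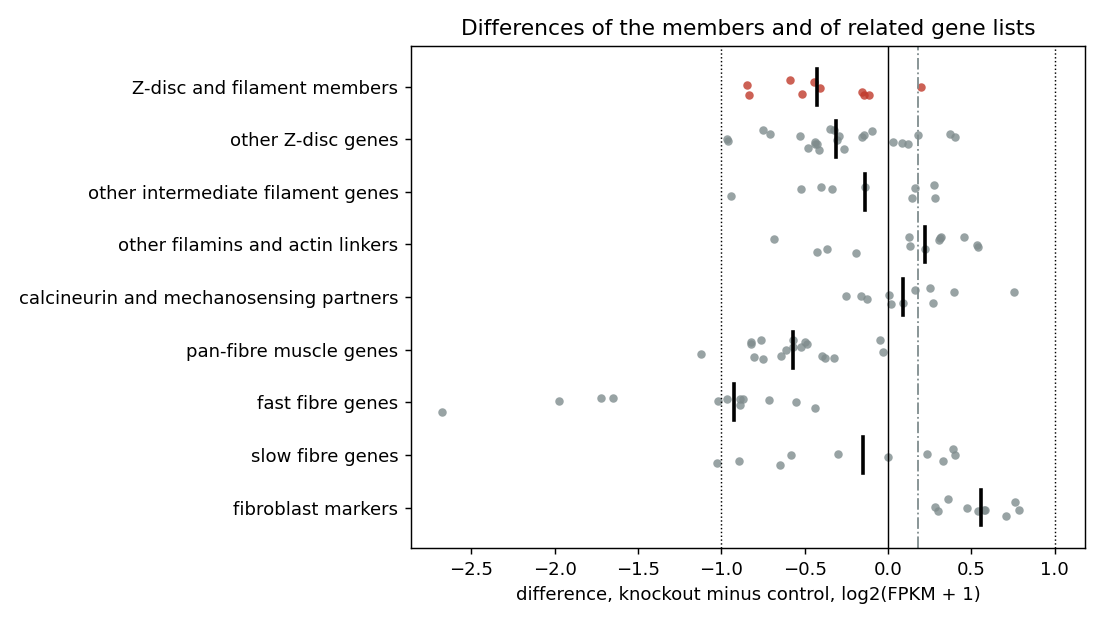
Difference of each measured gene, knockout minus control on the log2(FPKM + 1) scale (horizontal axis), for the 10 genes (red, top) and 8 related gene lists (grey), with the list median as a black bar, 0 as a solid line, the 2-fold rule as dotted lines and the median gene as a dash-dotted line. The 10 genes spread from -0.84 to 0.20 around a median of -0.43, between the medians of the pan-fibre list (-0.57) and the other Z-disc list (-0.32).

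Markers of other cell types differed between the libraries as well. All 16 keratinocyte markers were higher in the knockout library, 15 by the 2-fold rule, with a summed level of 2117 FPKM against 14.9 FPKM, and Krt1 was at 669 FPKM against 2.48 FPKM. Of 11 measured adipocyte markers 10 were above 0 and 7 higher by the 2-fold rule, with a summed level of 801 FPKM over the list against 369 FPKM. All 10 fibroblast markers were above the median gene, with a summed level of 5613 FPKM against 3612 FPKM. No marker of these 3 lists was at 0 in either library. The 9 smooth muscle and pericyte markers other than Des, a list that matters because these cells also make desmin and filamins, had a median of 0.12, with Myh11, smooth muscle myosin, at 22.8 FPKM against 17.7 FPKM and Rgs5 of pericytes at 5.59 FPKM against 8.73 FPKM. Their summed level was 196 FPKM against 189 FPKM, and all 9 were at 1 FPKM or more in both libraries. None passed the 1.5-fold rule in either direction on the log2(FPKM + 1) scale. The plain FPKM ratio of Rgs5 was 0.641 (0.549 to 0.747), which is more than 1.5-fold lower. Of 8 cardiomyocyte markers 4 were measured, all 4 below 0 with a median of -0.37. They ran from the heart myosin Myh6 at 3.75 FPKM against 9.93 FPKM to Tnnt2 at 307 FPKM against 314 FPKM. The summed level of the list was 1269 FPKM against 1480 FPKM. The atrial myosin light chain Myl7 was at 0.423 FPKM in the knockout library and listed at 0 in the control library. The part of these cell types in the values of the 10 genes was not tested.

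How the 2 libraries are scaled decides whether the largest differences reach 2-fold. By median of ratios, TMM or a sum without the 50 most abundant genes, 2 genes, Xirp2 and Myot, were lower by the 2-fold rule. Each was at -1.03 by median of ratios. Under these scalings, in the order named, 173, 171 and 184 measured genes were lower by the rule, against 98 as deposited. Tcap was at 0.001 by median of ratios and at -0.02 without the 50 most abundant genes, so its higher value depends on the scaling. Scaled to the pan-fibre genes, 7 of the 10 genes were above 0 and Xirp1, Myot and Xirp2 were below it. The median measured gene was at 0.64 under that scaling, so values above 0 were usual there. Counts of the other lists are with the values as deposited, and median of ratios takes 0.195 off the log2 ratio of every gene, which is less on the log2(FPKM + 1) scale for low genes. Over all measured genes, 353 were higher and 98 lower by the 2-fold rule with the values as deposited, 78.3% higher, and this share was 62.1%, 62.5%, 59.9% and 98.7% under median of ratios, TMM, the sum without the 50 most abundant genes and the pan-fibre genes.

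**Figure D4:**
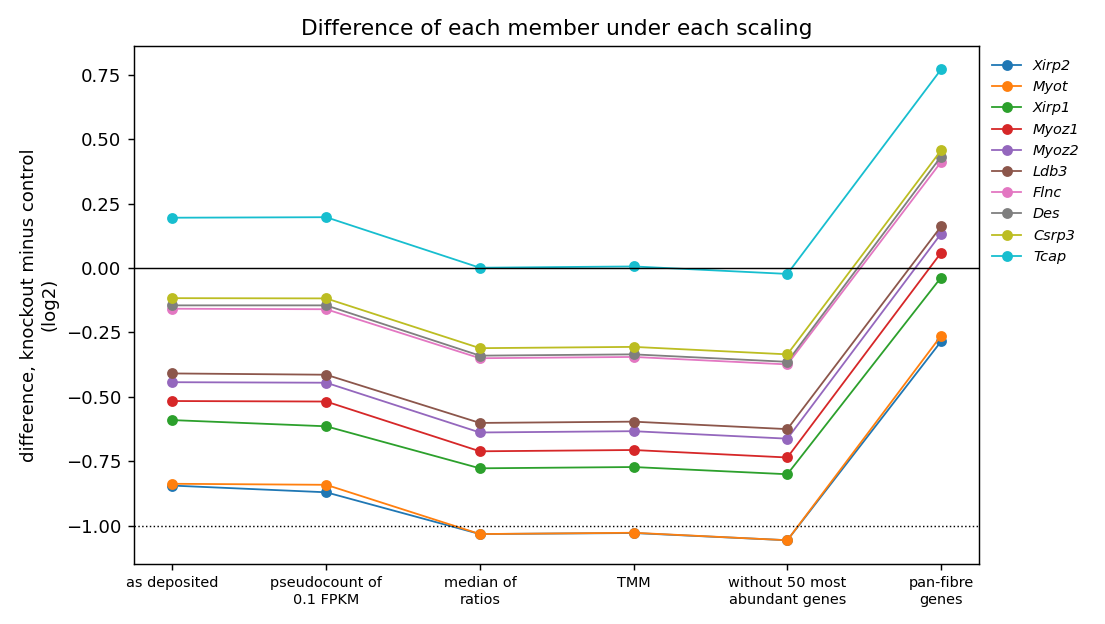
Difference of each of the 10 genes, knockout minus control on the log2 scale (vertical axis), with the values as deposited, a pseudocount of 0.1 FPKM and 4 scalings of the libraries (horizontal axis); the dotted line marks a 2-fold lower value. Each scaling moves the 10 genes together, so their order changes little, while Xirp2 and Myot cross the dotted line under 3 of the scalings and 7 genes lie above 0 when scaled to the pan-fibre genes.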

How the data were processed

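RNA of hindlimb muscle, taken with Trizol per the labels, was sequenced as 1 knockout and 1 control library, grouped by genotype label. Bowtie 0.12.2 and mm9 are named, without a role, in the submitters' processing notes. Positions in the deposited table are those of GRCm38, and all 10 genes overlap their GENCODE M21 gene there. How reads were counted, with which annotation and strand setting, no source used here says. Deposited by the authors were FPKM per gene, and tables of read totals and mapping rates, a mixed list of other units, per the file headers.

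The deposited FPKM were not rescaled. Differences were log2((knockout FPKM + 1)/(control FPKM + 1)), which understates changes of low genes, and measured genes had 1 FPKM or more in at least 1 library. The 2-fold rule is a rule of size with no test. The members and the 13 other gene lists were chosen with earlier results of these data known. Named genes are the 10 members, Srsf2, and the highest and lowest measured gene of each list; Myoz3, Flna, Csrp2, Myl7 and the gene pairs were added as relatives or neighbours after their values were seen.

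Whole reads were recovered from the FPKM. In 1134 genes the FPKM ratio was 0.95007, that of equal reads, which gave totals of 28060573 reads for the knockout and 26659452 for the control library. These totals are below the 61356758 and 56528337 mapped reads. No source used here says whether single reads or read pairs were counted, so "reads" here means the unit counted. For 95.9% of measured genes, whole reads over a whole gene length fitted both values to a relative error of 2e-14, and the smallest such reads were taken. These reads implied a length beyond the GENCODE exons of the gene in 22.0% of the genes matched there by name, Xirp1 among them, as counts in fractions of a read would give. There they were divided by the smallest whole number that brought the length within the exons, a step added after the data were seen, and genes without a match got no interval, which left 11722. Intervals can still be too wide, where true reads are a multiple, or too narrow, where fractions went unnoticed. Ratios have 95% Clopper-Pearson intervals, levels exact Poisson intervals and ratios of ratios exact conditional intervals. All cover counting error only, since reads that carry no molecular identifier need not be independent molecules. The recovery and division of reads, the intervals of ratios, the rule of size and the scalings were tested on simulated data. The finding of the equal-read ratio, the intervals of levels and of ratios of ratios, and the promoter search were not. Alternatives were another pseudocount, filter, fold rule and 4 scalings; TMM, computed here on FPKM without weights, trimmed 30% of ratios and 5% of levels at each end. Python 3.11.15, numpy 2.4.6, pandas 2.3.3, scipy 1.17.1 and matplotlib 3.10.9 were used.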

Additional observations from a re-analysis of the deposited data

How the results depend on the processing

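With 1 library per genotype leaving out a library was not possible. No paired analysis was possible because there is 1 library of each genotype. The median difference of the 10 genes (-0.43) was -0.62 under median of ratios, -0.62 under TMM, -0.64 without the 50 most abundant genes and 0.15 when scaled to the pan-fibre genes, where 3 of the 10 genes instead of 9 were below 0. The number of these genes lower by the rule (0) was 3 at 1.5-fold and 2 under each of the first 3 scalings. Over all measured genes, 353 genes were higher and 98 lower, which became 613 and 204 with a pseudocount of 0.1 FPKM, 169 and 54 at 5 FPKM or more, 1205 and 383 at 1.5-fold, and 1756 and 23 when scaled to the pan-fibre genes. Lower genes came to 173 (median of ratios), 171 (TMM) and 184 (50 most abundant genes left out). Without dividing read numbers that imply too long a gene, an alternative chosen after seeing the data, the intervals of 13.1% of measured genes lay below 1 and those of 51.2% above it. The filters, folds and scalings change these counts by construction. Of 36 named genes, 1 (Krt8) changed sign under median of ratios and under TMM, 2 (Krt8 and Tcap) without the 50 most abundant genes, 10 under the pan-fibre scaling and 0 with the other pseudocount. Depth limits these 10 genes little, since the widest interval of a ratio as computed, that of Tcap, runs from 1.06 to 1.23. The spread between animals was not measured.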
